A study of Arabidopsis thaliana with 42 samples.

Results

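The genes BGLU15, BGLU28, BGLU45 and BGLU47 encode beta-glucosidases of Arabidopsis thaliana. They were chosen by name: every probe set annotated to one of them was taken, which gave 4 of the 22810 probe sets on the array, 1 for each gene and none shared with another gene. Probe sets annotated to a single gene stand for 13350 genes in all. BGLU15 (AT2G44450, probe set 267388_at) and BGLU28 (AT2G44460, 267389_at) lie on chromosome 2, BGLU45 (AT1G61810, 264433_at) on chromosome 1 and BGLU47 (AT4G21760, 254371_at) on chromosome 4.

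RNA of shoot and stem samples was hybridised to 42 single-colour Affymetrix arrays, in 14 groups of 3. All plants grew in soil under continuous light at 23 °C and 65% humidity, and their ages are not given. The 7 groups of wild-type Col-0 were the second internode of the stem, the first node, the hypocotyl, the vegetative shoot apex sampled together with young leaves, the vegetative apex, the transition apex before bolting, and the inflorescence apex after bolting. The node sample also held some stem, some of the side shoot and the base of the first cauline leaf. The Col-0 inflorescence apex was taken with young flowers attached. A further 7 groups held inflorescence apices of single mutants in the Col-0 background: clv3-7 and lfy-12, then ap1-15 and ap2-6, and also ap3-6, ag-12 and ufo-1. CLV3 limits the size of the shoot meristem, LFY and AP1 give floral meristems their identity, AP2, AP3 and AG specify floral organs, and UFO acts with LFY in petal and stamen formation. Whether samples within a group came from different plants is not stated, so a p-value here measures the spread among these samples alone, which may be technical.

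Beta-glucosidases of glycoside hydrolase family 1 cut glucose from small glucosides that plants store in an inactive form. BGLU45 and its relative BGLU46 act on glucosides of monolignols, the building blocks of lignin, and BGLU47 belongs to the same subgroup. BGLU15 removes glucose from flavonol glycosides, and BGLU28 is known for its induction by sulfur deficiency and for acting on glucosinolates.

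Values are MAS5 signals on a linear scale, and differences are on the log2(signal + 8.01) scale, which understates the change of dim genes. Array medians lay between 36.3 and 45.7, and samples of 1 group correlated at 0.986 to 0.994. The titles of 6 arrays, 3 of the node and 3 of Col-0 inflorescence apices, end in a 2 behind the replicate letter. These arrays stood apart in the added poly-A control RNA: the dap control was 7.61 to 8.35 on the log2 scale there and 3.04 to 3.45 on the other 36 arrays. The tests over all organs and over all genotypes are therefore given without these 6 arrays as well, and so are the mutants, against each other in place of Col-0. Of the mutated genes UFO averaged 18.3 ± 2.69 in ufo-1 against 27.7 ± 1.41 in Col-0 (SD, n = 3 each). That difference (-0.44 on the log2 scale) was not called in limma. The means of ap1-15 (14.9 ± 4.12) and ap2-6 (3.96 ± 3.91) were below that of ufo-1, so the signal does not set ufo-1 apart. CLV3 averaged below the offset in both clv3-7 and Col-0. To be tested, a gene had to exceed the array's own 40th percentile on 3 or more arrays of the fit. BGLU15 was above it on 41 of 42 arrays, BGLU45 on 21, BGLU47 on 14 and BGLU28 on 9. BGLU15 and BGLU45 were thus tested among organs and among genotypes, BGLU47 among organs alone and BGLU28 among genotypes alone. A gene that is bright in 1 group and dim elsewhere passes this filter through that group, so such a gene had to differ. A gene was called at an adjusted p under 0.05 in limma.

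**Figure D1:**
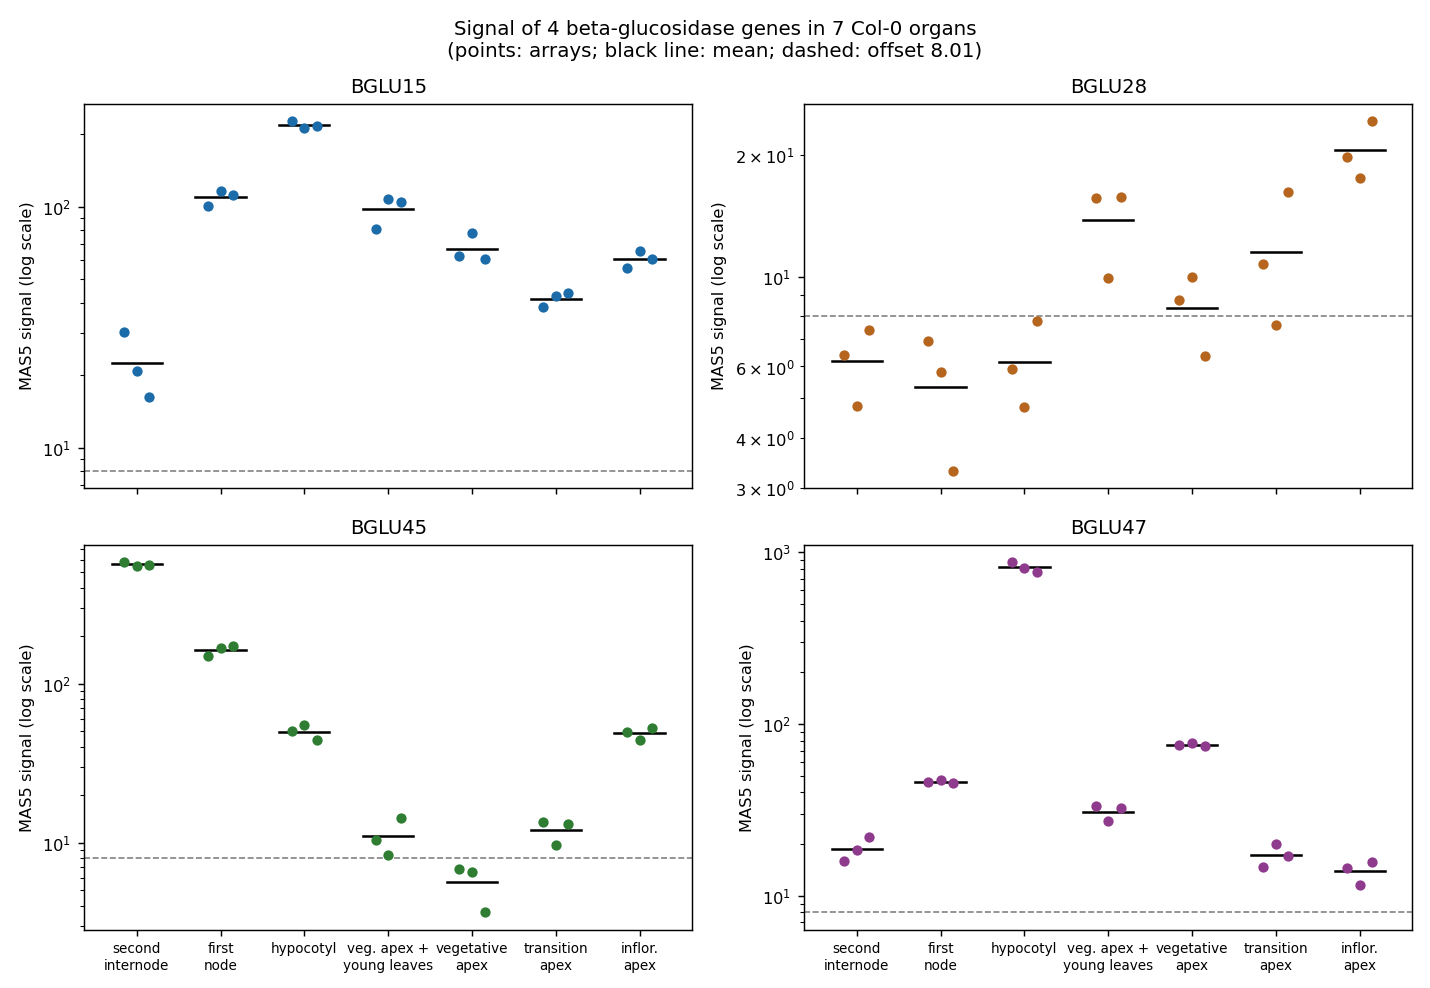
MAS5 signal (log axis) of BGLU15, BGLU28, BGLU45 and BGLU47 in 7 Col-0 organs, with 1 point per array, the mean of 3 arrays as a black line and the offset of 8.01 as a dashed line. BGLU45 is highest in the internode, BGLU47 and BGLU15 in the hypocotyl, and BGLU28 in the inflorescence apex.

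BGLU45 was brightest in the stem. Its signal was 578, 548 and 560 in the second internode, and 149, 167 and 171 in the first node. In the hypocotyl it was 50.5, 54.7 and 44.0, and in the Col-0 inflorescence apex 49.4, 44.4 and 52.8. The internode lay above every other group and the node above the remaining ones, while hypocotyl and inflorescence apex overlapped. The transition apex had 13.4, 9.65 and 13.0, the vegetative apex with young leaves 10.4, 8.39 and 14.2, and the vegetative apex 6.81, 6.56 and 3.64. All 3 vegetative apex arrays were below the offset of 8.01, so the internode signal was at least 70.2-fold higher, taking that offset as the floor.

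Between the internode and the node, BGLU45 differed 3.45-fold (562 ± 14.8 against 162.8 ± 11.8, SD, n = 3 each), a log2 difference of 1.74 ± 0.12 (SE, adjusted p = 6.9e-12 in limma). In that comparison 57.2% of all probe sets were called. The internode exceeded the hypocotyl by 3.31 and the inflorescence apex by 3.33 on the log2 scale, with 75.9% and 84.8% of all probe sets called. Of these 3 differences, the one from the hypocotyl uses none of the arrays that stood apart. Hypocotyl and inflorescence apex differed by 0.02 (95% interval -0.22 to 0.26, adjusted p = 0.88), and the transition apex and the vegetative apex with young leaves by 0.08 (-0.16 to 0.33, adjusted p = 0.55). In all, BGLU45 was called in 19 of the 21 organ pairs. Summed over these pairs 71.6% of all probe sets were called (32.1% to 84.8% per pair), so a call in any 1 pair was common on these arrays.

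Along the development of the shoot apex, BGLU45 averaged 5.67 ± 1.76 in the vegetative apex, 12.02 ± 2.06 in the transition apex and 48.9 ± 4.24 in the inflorescence apex (SD, n = 3 each). The arrays of the 3 stages did not overlap. The inflorescence apex was above the transition apex by 1.51 ± 0.12 on the log2 scale (adjusted p = 5.4e-10 in limma), where 32.1% of probe sets were called. The transition apex was above the vegetative apex by 0.55 ± 0.12 (adjusted p = 3.8e-04), where 53.6% were called; the vegetative arrays were below the offset, so 0.55 depends on it. This second step does not involve the arrays that stood apart, whereas the first one does.

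BGLU47, of the same subgroup, was brightest in the hypocotyl. Its signal there was 871, 810 and 768, and no array of another group passed 77.6. The vegetative apex came next with 75.8, 77.6 and 74.2, followed by the node with 45.8, 47.3 and 45.4. Those 3 groups did not overlap with each other or with any group below them. The vegetative apex with young leaves had 33.1, 27.1 and 32.3, the internode 15.8, 18.4 and 21.96, the transition apex 14.8, 19.9 and 16.9, and the inflorescence apex 14.5, 11.5 and 15.7. The internode, so bright for BGLU45, thus lay among the 3 lowest organs for BGLU47.

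The hypocotyl exceeded the vegetative apex 10.8-fold in BGLU47 signal (816 ± 52.0 against 75.9 ± 1.71, SD, n = 3 each), a log2 difference of 3.30 ± 0.10 (adjusted p = 1.2e-18 in limma). In that pair 73.8% of all probe sets were called. Against the inflorescence apex the ratio was 58.7-fold. The inflorescence apex mean of 13.9 was below the 40th percentile of every array (at least 19.7), so the size of this ratio is uncertain. BGLU47 was called in 19 of 21 organ pairs, over which 71.6% of all probe sets were called. The internode and the transition apex differed by 0.08 on the log2 scale (95% interval -0.13 to 0.30, adjusted p = 0.45), and the inflorescence apex and the transition apex by -0.20 (-0.41 to 0.01, adjusted p = 0.14). Scaled to a common array median, the first of these became 0.25 (adjusted p = 0.032).

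From the vegetative to the transition apex BGLU47 fell, where BGLU45 rose. BGLU47 averaged 75.9 ± 1.71 in the vegetative apex, 17.2 ± 2.60 in the transition apex and 13.9 ± 2.14 in the inflorescence apex (SD, n = 3 each). The transition apex was lower than the vegetative apex by 1.74 ± 0.10 on the log2 scale, a log2 difference of -1.74 (adjusted p = 5.4e-13 in limma). Neither group is among the arrays that stood apart in their controls. Inflorescence and transition apex overlapped in BGLU47, and their difference (-0.20) was not called, whereas BGLU45 rose by 1.51 at that step.

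BGLU15 was also highest in the hypocotyl, with a flatter pattern. Its signal was 227, 212 and 216 there, 101, 117 and 112 in the node, and 81.1, 108 and 105 in the vegetative apex with young leaves. Hypocotyl arrays lay above all others, whereas node and young-leaf samples overlapped. The vegetative apex had 62.7, 77.8 and 60.9, the transition apex 38.3, 42.6 and 43.9, and the inflorescence apex 56.0, 65.6 and 60.8. The internode had 30.3, 20.9 and 16.2 and was the lowest organ, below every other array of the series. It was also the group with the widest relative spread for this gene.

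The hypocotyl signal of BGLU15 was 1.99 times that of the node and 9.73 times that of the internode. In log2 terms the hypocotyl was above the vegetative apex by 1.60 ± 0.13 (adjusted p = 5.1e-11 in limma), where 73.8% of all probe sets were called. The internode was below the node by 1.98 ± 0.13, a log2 difference of -1.98 (adjusted p = 2.6e-12 in limma), where 57.2% were called. The node arrays are among the 6 that stood apart. Vegetative apices with young leaves were above those without by 0.49 ± 0.13 (adjusted p = 0.0025), in a pair where 48.2% of all probe sets were called. BGLU15 was called in 19 of 21 organ pairs, over which 71.6% of all probe sets were called. The node and the vegetative apex with young leaves differed by 0.16 (95% interval -0.10 to 0.42, adjusted p = 0.25), and the inflorescence and vegetative apex by -0.12 (-0.39 to 0.14, adjusted p = 0.42).

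From stage to stage of the apex, BGLU15 averaged 67.1 ± 9.28 in the vegetative, 41.6 ± 2.94 in the transition and 60.8 ± 4.81 in the inflorescence apex (SD, n = 3 each). The transition apex was below the vegetative apex, with a log2 difference of -0.59 (adjusted p = 3.8e-04 in limma), where 53.6% of all probe sets were called. The inflorescence apex was above the transition apex by 0.47 (adjusted p = 0.0060), where 32.1% were called, and its arrays are among the 6 that stood apart.

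BGLU28 was dim in all organs. Its signal was 19.8, 17.6 and 24.2 in the inflorescence apex, 10.7, 7.58 and 16.2 in the transition apex, and 8.76, 9.98 and 6.37 in the vegetative apex. The inflorescence apex lay above every other organ array, and the other stages overlapped. The vegetative apex with young leaves had 15.7, 9.95 and 15.7. In the internode, the node and the hypocotyl all 9 arrays were between 3.31 and 7.77, below the offset of 8.01, so no order among these 3 can be given. The filter left BGLU28 out of the organ fit. Without the filter the difference among the 7 organs had an adjusted p of 2.6e-05, and 11 of 21 pairs were called, where 53.8% of all probe sets were called over the 21 pairs. The inflorescence apex was then above the vegetative apex by 0.80 and above the transition apex by 0.57 on the log2 scale (adjusted p = 4.9e-04 and 0.018 in limma), in comparisons that rest on inflorescence arrays that stood apart.

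Over the 7 organs together, BGLU15 (adjusted p = 2.4e-15), BGLU45 (1.8e-22) and BGLU47 (3.7e-23) were called by the F test of limma, as were 98.4% of all probe sets tested, so that being called says little about these genes. Without the node and the inflorescence apex, the adjusted p was 6.1e-13 for BGLU15, 4.5e-18 for BGLU45 and 2.4e-19 for BGLU47. These are bulk samples, in which fewer cells of a type and less RNA per cell cannot be told apart.

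Markers of other tissues moved with the organs. The summed signal of 3 secondary wall markers (IRX15, IRX15-L and GUT2, which act in xylan synthesis) was 3083 to 3396 in the internode, 1457 to 1654 in the node and 219 to 238 in the hypocotyl. It was 44.6 to 91.9 in all 4 Col-0 apex groups. PYK10, a beta-glucosidase of ER bodies, was the single gene of the root list measured. It had 2719 to 3122 in the hypocotyl, 1118 to 1157 in the vegetative apex and 643 to 715 in the vegetative apex with young leaves. In the internode and node together it had 3.64 to 9.19. PYK10 thus had signal in vegetative shoot apices as well as in the hypocotyl, and the part of root tissue in its signal was not tested. The 7 leaf photosynthesis markers summed to 14550 to 16778 in the internode and 3764 to 3977 in the inflorescence apex. The part of these tissues in the values above was not tested.

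**Figure D2:**
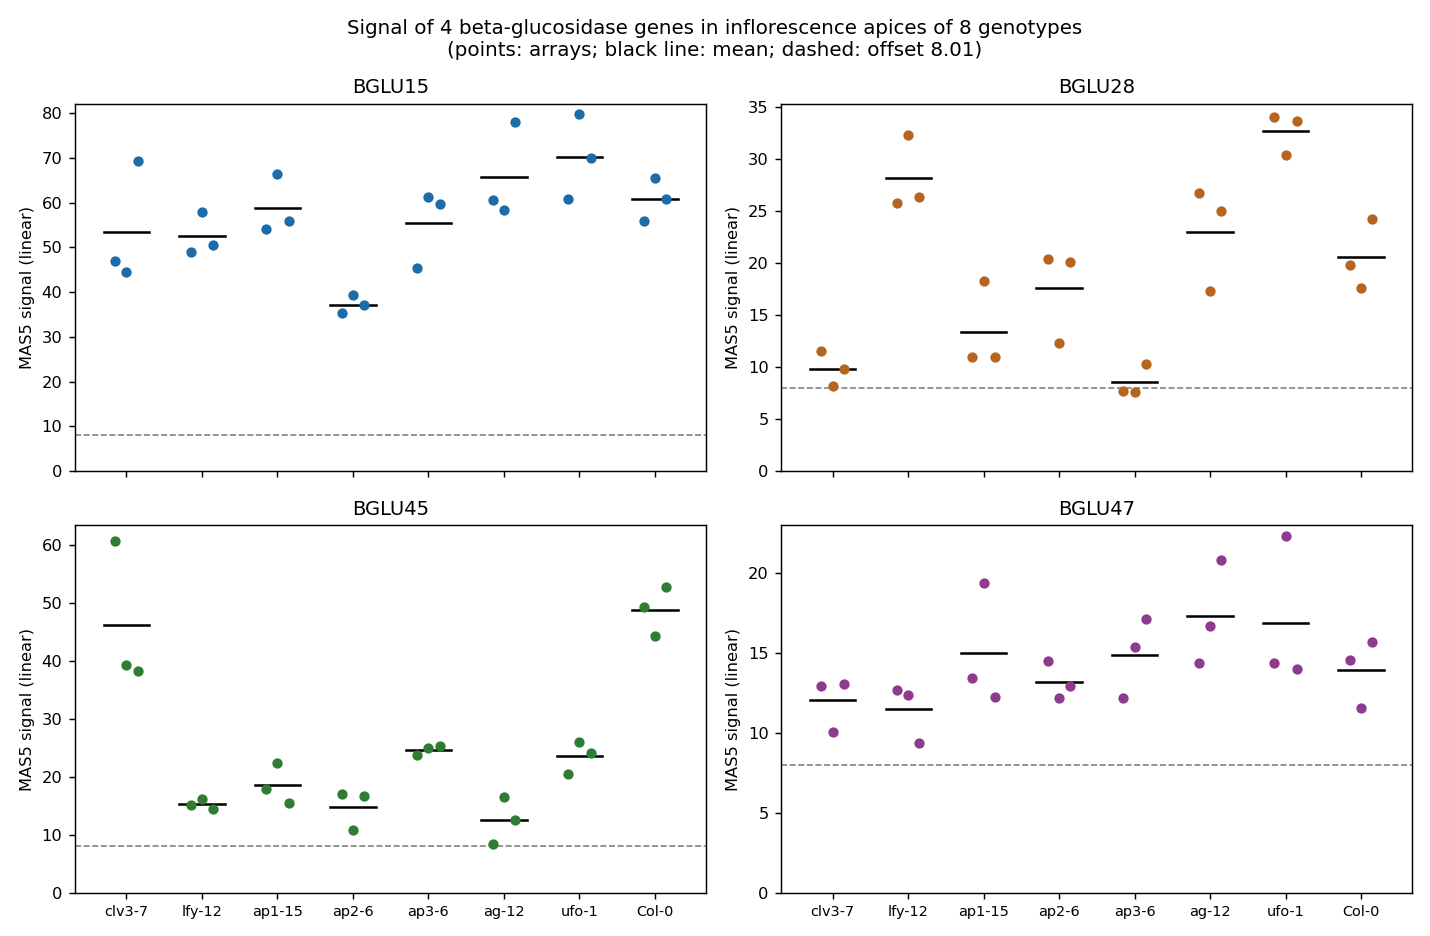
MAS5 signal (linear axis from 0) of the 4 genes in inflorescence apices of 7 mutants and Col-0, with 1 point per array, the mean of 3 arrays as a black line and the offset of 8.01 as a dashed line. BGLU45 is between 8.41 and 25.9 in all mutants other than clv3-7, BGLU28 is highest in ufo-1 and lfy-12, and BGLU15 is lowest in ap2-6.

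Among inflorescence apices, BGLU45 was lower in 6 of 7 mutants than in Col-0. Its signal was 15.1, 16.3 and 14.4 in lfy-12, 18.0, 22.5 and 15.6 in ap1-15, and 17.1, 10.9 and 16.7 in ap2-6, against 49.4, 44.4 and 52.8 in Col-0. It was 23.7, 25.03 and 25.3 in ap3-6, 8.41, 16.5 and 12.6 in ag-12, and 20.5, 25.9 and 24.1 in ufo-1. No array of these 6 mutants reached a Col-0 array. The clv3-7 apices, with 60.8, 39.4 and 38.3, overlapped with Col-0 and lay above the other mutants.

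The log2 difference from Col-0 was -1.49 ± 0.16 in ag-12 (adjusted p = 9.6e-08 in limma), -1.32 in ap2-6 and -1.29 in lfy-12. It was -1.10 in ap1-15, -0.85 in ufo-1 and -0.79 in ap3-6, with an adjusted p of at most 5.6e-04. Mean signals in ag-12, ap2-6, lfy-12 and ap1-15 were below the 40th percentile of every array (19.7 to 27.4). The sizes of these differences therefore depend on the offset. In clv3-7 it was -0.09 (95% interval -0.42 to 0.24, adjusted p = 0.74). Of all probe sets, 26.9% were called in ag-12, 20.7% in ap2-6, 27% in lfy-12, 27.5% in ap1-15, 18.8% in ufo-1, 23.8% in ap3-6 and 19.1% in clv3-7. The 7 comparisons share their 3 Col-0 arrays. Those arrays are among the 6 that stood apart in the control RNA. Among the 7 mutants alone BGLU45 still differed (adjusted p = 2.6e-06, F test of limma). Set against the mean of the other 6 mutants, clv3-7 was higher by 1.05 ± 0.12 (adjusted p = 2.6e-07), and ag-12 (-0.58), ap2-6 (-0.39) and lfy-12 (-0.35) were lower. There, ap1-15 (-0.13), ap3-6 (0.23) and ufo-1 (0.16) were not called. These values average 0 over the 7 mutants by construction and do not estimate a difference from Col-0. Summed over these 7 comparisons 26.7% of all probe sets were called.

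In order of mean BGLU45 signal the genotypes ran from Col-0 and clv3-7 through ap3-6, ufo-1, ap1-15, lfy-12 and ap2-6 to ag-12. The single step between neighbours that passed the test was the one from clv3-7 to ap3-6 (46.1 ± 12.7 against 24.7 ± 0.85, SD, n = 3 each), with an adjusted p of 0.0013 in limma. Of 21 pairs of mutants 11 were called, in comparisons where 26.3% of all probe sets were.

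BGLU28 moved in both directions. Its signal was 34.0, 30.4 and 33.6 in ufo-1, 25.8, 32.3 and 26.3 in lfy-12, and 26.7, 17.3 and 24.96 in ag-12, against 19.8, 17.6 and 24.2 in Col-0. The ufo-1 and lfy-12 arrays lay above Col-0, and those of ag-12 overlapped with it. In ap2-6 it was 20.4, 12.3 and 20.0, in ap1-15 10.998, 18.2 and 10.9, in clv3-7 11.5, 8.22 and 9.80, and in ap3-6 7.72, 7.57 and 10.3. The clv3-7 and ap3-6 arrays lay below every Col-0 array, and several were near the offset of 8.01, where the scale compresses differences.

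Against Col-0, BGLU28 was called in 3 of 7 mutants, in comparisons where 18.8% to 27.5% of all probe sets were called. It was lower in ap3-6 (log2 difference -0.79 ± 0.17, adjusted p = 8.7e-04 in limma) and in clv3-7 (-0.68 ± 0.17, adjusted p = 0.0047), and higher in ufo-1 (0.52 ± 0.17, adjusted p = 0.029). The call in ufo-1 is the least firm: leaving out Col-0 replicate A or B, or ufo-1 replicate A or C, gave 0.44 to 0.50 with an adjusted p of 0.073 to 0.12. With the 3'/5' signal ratio of control transcripts as a covariate it was 0.40 (adjusted p = 0.19), and this ratio was 2.03 ± 0.14 in ufo-1 and 1.83 ± 0.07 in Col-0 on the log2 scale. The differences in ap1-15 (-0.43, adjusted p = 0.056) and lfy-12 (0.34, 95% interval 0.00 to 0.68, adjusted p = 0.13) were not called. All 7 comparisons share the Col-0 arrays, which are among the 6 that stood apart in the control RNA. Measured against the other 6 mutants, which leaves the Col-0 arrays out, 4 mutants were called, where 26.7% of all probe sets were over the 7 comparisons. There ufo-1 (0.78) and lfy-12 (0.58) were higher, and ap3-6 (-0.74) and clv3-7 (-0.61) lower. No neighbouring pair in the order of BGLU28 means was called. Of 21 pairs of mutants 13 were called, where 26.3% of all probe sets were. The mutants at the ends of the order, ap3-6 and ufo-1, differed by -1.30 ± 0.17 (adjusted p = 1.1e-06 in limma).

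BGLU15 was the steadiest of the 3 genes tested here. The ap2-6 apices, with 35.3, 39.4 and 37.1, were below all other genotypes, against 56.0, 65.6 and 60.8 in Col-0. Arrays of the other 6 mutants ranged from 44.4 in clv3-7 to 79.9 in ufo-1, and each of these mutants overlapped with Col-0. The log2 difference in ap2-6 was -0.60 ± 0.14 (adjusted p = 0.0018 in limma), and it was -0.56 against the mean of the other 6 mutants (adjusted p = 2.1e-04). In the other 6 mutants the difference from Col-0 lay between -0.19 in lfy-12 and 0.18 in ufo-1. None was called, where 18.8% to 27.5% of all probe sets were called per mutant. Against the other 6 mutants, ufo-1 was called as higher (0.36, adjusted p = 0.014).

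BGLU47 was dim in all inflorescence apices. Arrays of the 7 mutants ranged from 9.33 to 22.3, against 14.5, 11.5 and 15.7 in Col-0, and every mutant overlapped with Col-0. It did not pass the filter. Without the filter the difference among the 8 genotypes had an adjusted p of 0.35, and none of the 7 mutants was called in limma, where 14.2% of all probe sets were over the 7 comparisons. The 95% intervals of all 7 differences included 0.

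Over the 8 genotypes BGLU15 (adjusted p = 6.9e-04), BGLU28 (4.6e-07) and BGLU45 (9.8e-09) were called by the F test of limma, as were 70.1% of all probe sets tested. BGLU28 exceeded the 40th percentile on 9 of the 24 arrays and BGLU45 on 12, so both could pass the filter through their brighter groups. Without Col-0 the adjusted p was 9.9e-04 for BGLU15, 8.7e-07 for BGLU28 and 2.6e-06 for BGLU45.

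**Figure D3:**
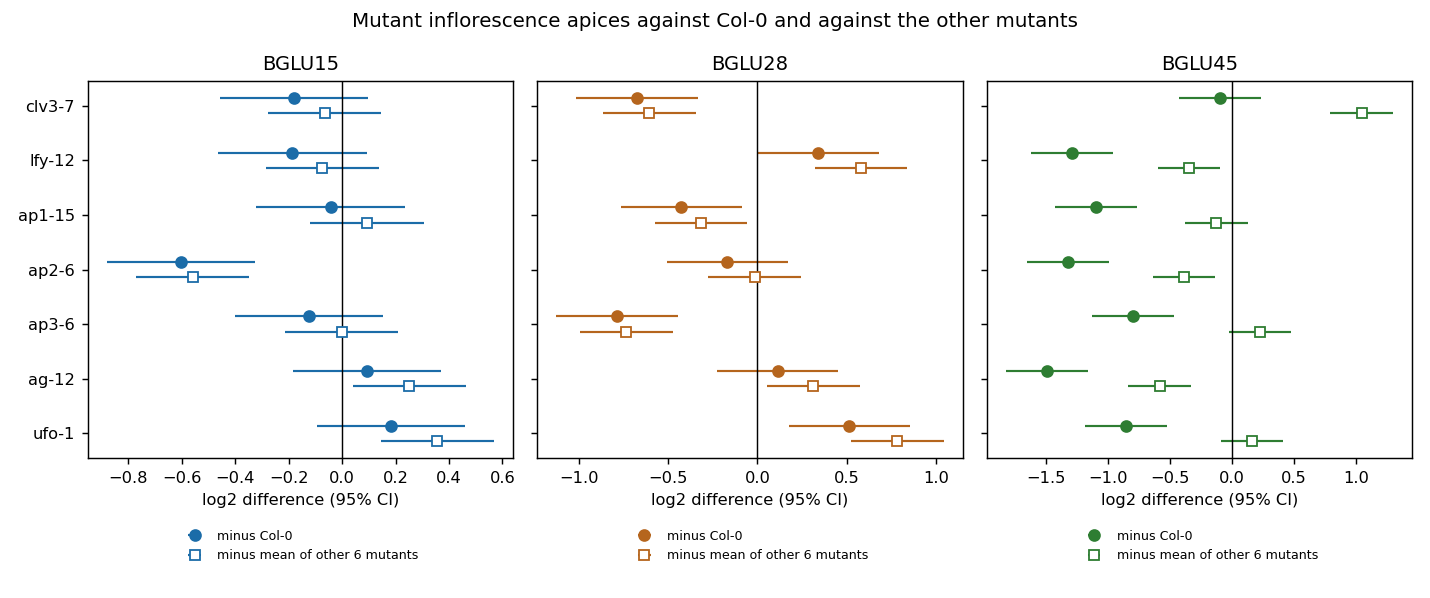
Log2 difference (points, with 95% intervals as bars) of each mutant from Col-0 (filled circles) and from the mean of the other 6 mutants (open squares), for BGLU15, BGLU28 and BGLU45. For BGLU45 all mutants but clv3-7 lie below Col-0, and clv3-7 is 1.05 above the other mutants. For BGLU28, ufo-1 and lfy-12 lie above 0 and clv3-7 and ap3-6 below 0 in both comparisons, and for BGLU15 ap2-6 is the lowest in both.

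Stamen and tapetum markers differed between these apices. The summed signal of 3 stamen and tapetum markers (AMS, ATA27 and SPL) was 2.43 to 10.8 in lfy-12, 2.54 to 6.47 in ap3-6 and 1.61 to 13.1 in ag-12, against 29.04 to 39.2 in Col-0. It was 60.8 to 65.5 in ap2-6, 37.0 to 43.5 in ap1-15, 24.1 to 24.4 in clv3-7 and 13.4 to 21.1 in ufo-1. All 3 markers averaged below the offset in lfy-12, ap3-6, ag-12 and ufo-1. ATA27 averaged at most 3.24 in any group, and AMS averaged 8.59 in Col-0 and 28.3 in ap2-6. In Col-0 most of the sum thus came from SPL (23.1). BGLU45 was lower than Col-0 in all of these mutants but clv3-7, and its relation to these sums was not tested. The 3 secondary wall markers summed to 52.4 to 83.8 in all 8 genotypes. The 7 leaf photosynthesis markers were all called as higher in lfy-12 and ag-12 (medians 0.81 and 0.66 on the log2 scale) and all called as lower in ap1-15 (median -0.34). The 4 floral organ and meristem markers measured were UFO, SPT, AGL24 and FD. Among Col-0 organs AGL24 was highest in the node (191, against 34.2 in the inflorescence apex). FD was highest in the transition apex (125, against 45.6), so counts of these markers do not measure the amount of floral tissue. Of the 4 markers 3 were called as higher in clv3-7 (median 0.49), and 3 as higher and 1 as lower in ap1-15 (median 0.62). In lfy-12 and ap2-6, 2 were higher and 1 lower, in ap3-6 2 were higher, and in ag-12 and ufo-1 1 was higher and 1 lower. The shoot meristem marker measured, CLV3, averaged below the offset in 12 of the 14 groups, and 9.52 in lfy-12 and 11.1 in ap3-6. The part of these differences in the values of the 4 genes was not tested.

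BGLU45 and BGLU46 are next to each other on chromosome 1 in the TAIR10.1 gene table. BGLU46 had 284, 321 and 277 in the hypocotyl, 129, 122 and 127 in the internode, 110, 116 and 128 in the node, and 19.5 to 31.9 in the 4 Col-0 apex groups. It was thus highest in the hypocotyl, as BGLU47 was, and second in the stem. The internode was below the hypocotyl in BGLU46 (log2 difference -1.17 ± 0.11, adjusted p = 4.2e-10 in limma) but above it in BGLU45 (3.31 ± 0.12). Between the inflorescence and transition apex BGLU46 differed by -0.01 (adjusted p = 0.97), where BGLU45 had 1.51. Among the mutants BGLU46 was lower than Col-0 in ap3-6 (-0.87), ag-12 (-0.84), ap2-6 (-0.59) and lfy-12 (-0.54), 4 of the 6 in which BGLU45 was lower. Over the 14 group means, Pearson's r was 0.69 between BGLU45 and BGLU46 and 0.75 between BGLU47 and BGLU46. It was 0.09 between BGLU45 and BGLU47. These points share arrays and scaling, and the values only describe the patterns.

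BGLU15 and BGLU28 are neighbours on chromosome 2, followed by BGLU29. Their group means had r = -0.17 over the 14 groups, with BGLU15 highest in the hypocotyl, where BGLU28 was below the offset. The group means of BGLU29 were below the offset in all 14 groups. BGLU15 was most like BGLU47 among these genes (r = 0.78).

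**Figure D4:**
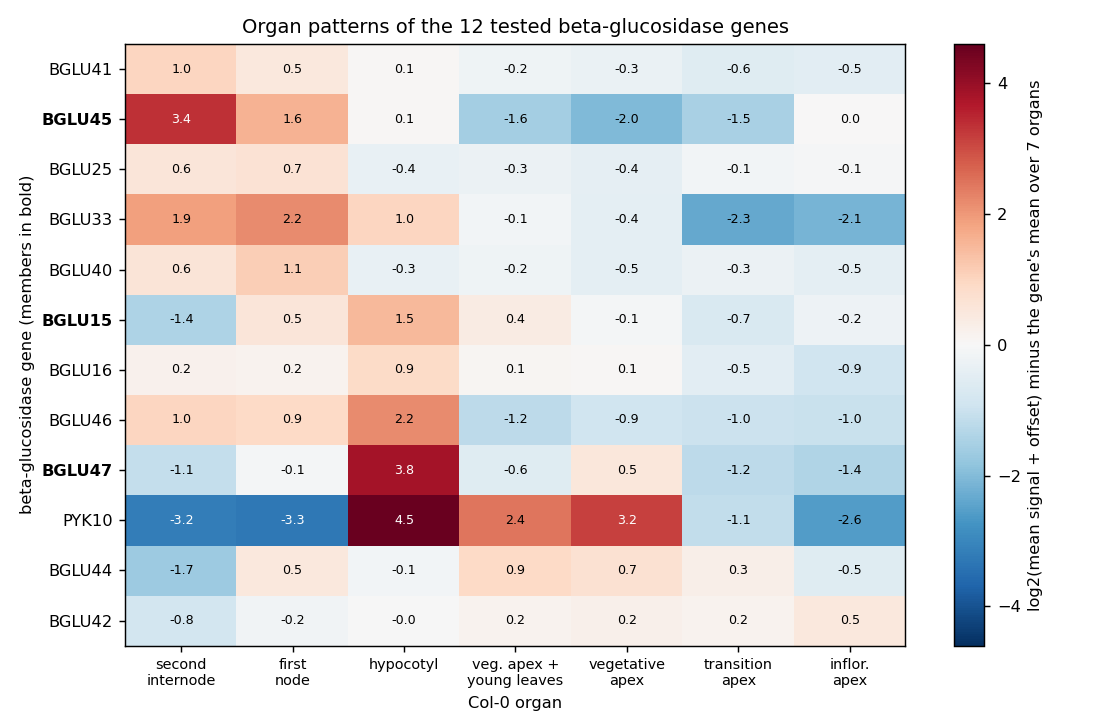
Log2(mean signal + offset) of the 12 beta-glucosidase genes tested in 7 Col-0 organs, each minus its own mean over the organs (color and printed value; red is higher), with genes ordered by their highest organ. Of the 12 genes 5 are highest in the hypocotyl, 3 in the node and 2 in the internode.

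Of 59 names of the beta-glucosidase family listed, 22 matched an annotated probe set, and 12 were tested in the organs, the 3 described above among them. The hypocotyl was the highest organ for 5 of the 12, the node for 3, the internode for 2, and the inflorescence apex and the vegetative apex with young leaves for 1 each. Between the hypocotyl and the vegetative apex, 8 of 12 were called as higher and 2 as lower (median 1.11 on the log2 scale, against -0.04 for all probe sets), with BGLU47 (3.30), BGLU46 (3.09) and BGLU45 (2.08, with a vegetative mean below the offset) among them. In that pair 35.4% of all probe sets were called as higher and 38.3% as lower. Between the internode and the inflorescence apex, 8 were higher and 4 lower (median 0.82, against -0.13), with BGLU45 (3.33) and BGLU46 (2.02) among the higher ones. BGLU33 and BGLU41 were higher too, but their inflorescence apex means (3.69 and 7.70) were below the offset, so no size is given. All probe sets gave 37.9% higher and 46.9% lower there. The 12 genes were called by the F test over organs, as 98.4% of all probe sets were.

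Of 42 names from lignin formation, some of them synonyms, 8 matched a probe set annotated to 1 gene, and 6 were tested in the organs. In the annotation 8730 probe sets had no gene, so a name without a match may still be on the array. In the hypocotyl against the vegetative apex 5 of 6 were higher and none lower (median 2.02 on the log2 scale, against -0.04 for all). Among them were BGLU46 (3.09) and UGT72E1 (2.18), which glucosylates monolignol precursors. The peroxidase AT5G66390 was higher too, with a vegetative mean below the offset. In the internode against the inflorescence apex 4 of 6 were higher and none lower (median 1.26, against -0.13), led by HCT (3.21), an enzyme of monolignol synthesis, GT72B1 (2.67), a glucosyltransferase of phenolics, and BGLU46 (2.02). HCT (0.79) and GT72B1 (0.94) were also above the node in the internode. BGLU46 was not called there (0.08), and AT5G66390 averaged below the offset in both. In that pair 27.4% of all probe sets were called as higher and 29.8% as lower. The wall polysaccharide list had 4 genes tested from 27 names, and all 4 were higher in the internode than in the inflorescence apex (median 5.06), with IRX15-L at 5.86 and GUT2 at 4.26. IRX15 averaged below the offset in the inflorescence apex. All 4 were also above the node (median 0.96). Of all probe sets 35.4% were called as higher in the hypocotyl than in the vegetative apex. For the internode against the inflorescence apex that share was 37.9%.

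Between the inflorescence and transition apex, where BGLU45 was higher by 1.51, none of the 6 lignin genes and none of the 4 wall genes was called in limma (medians -0.03 and 0.15 on the log2 scale). At an unadjusted p under 0.05 these counts were 0 of 6 and 1 of 4. Of 4 lignin genes tested in genotypes, 3 were lower than Col-0 in ap2-6 (BGLU46 -0.59, GT72B1 -0.38 and HCT -0.22), 2 in ap3-6 (BGLU46 -0.87 and GT72B1 -0.28), 2 in ap1-15 (GT72B1 -0.69 and HCT -0.30) and 1 in lfy-12 (BGLU46 -0.54). In ag-12, where BGLU45 was lowest, BGLU46 was lower (-0.84) and GT72B1 higher (0.40). None was called in clv3-7 or ufo-1, where 1 and 0 had an unadjusted p under 0.05. Of all probe sets 8.69% to 14.4% were called as lower and 9.4% to 14% as higher in the 7 mutants. The 2 wall genes tested were called in none of the 7 mutants, also at an unadjusted p under 0.05.

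For BGLU28 the comparison was with sulfur assimilation. Of 38 names 3 matched an annotated probe set, and these were APS3 and APS4, which activate sulfate, and SIR, which reduces sulfite. In the mutants in which BGLU28 was called, APS3 was lower in ap3-6 (log2 difference -0.58), SIR was lower in clv3-7 (-0.22) and none of the 3 was called in ufo-1, also at an unadjusted p under 0.05. In the hypocotyl against the vegetative apex all 3 were higher (APS4 2.25, APS3 0.83 and SIR 0.51), and BGLU28 was at or near the offset in both. In that pair 35.4% of all probe sets were called as higher and 38.3% as lower. The list of glucosinolate breakdown and ER body genes had 7 of 33 tested in the organs. In the same pair 6 were higher in the hypocotyl and 1 lower (median 1.61, against -0.04 for all probe sets), led by the lectins JAL33 (3.51), JAL22 (2.92) and JAL34 (2.76). In genotypes 2 were tested. NAI2, an ER body protein, was lower in ap1-15 (-1.40), ag-12 (-0.92), clv3-7 (-0.81), lfy-12 (-0.42) and ap3-6 (-0.37). The lectin JAL23 was lower in ap1-15 (-1.78), ap2-6 (-0.74), ap3-6 (-0.35) and lfy-12 (-0.27), and higher in ufo-1 (0.31) and clv3-7 (0.26).

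For BGLU15 the list was flavonol and phenylpropanoid synthesis, with 4 of 27 names matched to a probe set and 3 tested in the organs. In the hypocotyl against the vegetative apex UGT78D1, a flavonol rhamnosyltransferase, was higher (0.36 on the log2 scale) and the other 2 were not called. In the internode, the lowest organ for BGLU15, all 3 were below the inflorescence apex, with UGT78D1 at -1.89, DFR at -0.53 and UGT78D2 at -0.48. In that pair 46.9% of all probe sets were called as lower and 84.8% in either direction, so such calls were common. DFR makes anthocyanin precursors and UGT78D2 is a flavonoid glucosyltransferase. In ap2-6, where BGLU15 was lower, UGT78D1 was lower (-0.24) while DFR (0.55) and UGT78D2 (0.46) were higher.

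The genes most like each member were sought by Pearson's r over the 14 group means, among 985 probe sets that passed the filter over all 42 arrays, had a gene symbol and ranged over at least 1 on the log2 scale. For BGLU45 these were GLX2-5 (0.96), a glyoxalase, ATGRIP (0.96), a Golgi protein, and SRX (0.96), a sulfiredoxin. Each of them was highest in the internode, at 328, 178 and 385. For BGLU47 they were tny (0.96), a transcription factor, the chitinase ChiC (0.95) and the glucosyltransferase UGT72B3 (0.94), all highest in the hypocotyl. ChiC was also among those of BGLU15 (0.82), after the protein kinase ATMPK13 (0.85) and the peptide gene CLE41 (0.84). For BGLU28 the values were lower, with IQD24 (0.81), NGA1 (0.75) and CHIL (0.75). The genes were picked for this likeness, over points that share arrays and scaling, so r describes and does not test it.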

How the data were processed

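RNA of 42 samples was measured on 1-colour Affymetrix arrays of 22810 probe sets. The deposited values are MAS5 signals, an intensity per probe set on a linear scale, per the submitters' processing notes; its version and settings are not stated there. The mean after trimming 2% at each end was 100 on each array, so no further scaling was done. Signals were turned into log2(signal + 8.01), where 8.01 is the median, across arrays, of each array's 25th percentile. No test included the 64 control probe sets.

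Probe sets that exceeded the array's own 40th percentile on 3 or more arrays were fitted in limma 3.58.1 (R 4.3.3, lmFit and eBayes with a trend), once over the 7 Col-0 organs (21 arrays, 16039 probe sets) and once over the 8 inflorescence apex genotypes (24 arrays, 14630 probe sets). Benjamini-Hochberg adjustment ran over all probe sets of a comparison, and a difference was called at 0.05. The scripts were tested on simulated data. Tables and figures were made with Python 3.11.15 and matplotlib 3.10.9.

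Genes were named from the platform annotation, in which 13513 probe sets had 1 gene, 503 several and 8730 none; 13436 matched the TAIR10.1 RefSeq table. Beside the 4 genes, the text names the 3 genes most like each and, of each gene list, up to 3 called genes with the greatest change in a comparison; other family and list genes were named after their values were seen. The lists were the beta-glucosidase family, lignin, secondary wall polysaccharides, sulfur assimilation, flavonols, and glucosinolate breakdown with ER bodies, and the marker lists were floral organs, shoot meristem, leaf photosynthesis, secondary wall, stamen and tapetum, and root. The symbols CHI and APK1 were left out because the annotation uses them for a chitinase and a kinase. Members and lists were chosen with earlier results of these data known.

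Samples of a group carry the letters A, B and C. Same-letter samples of different groups did not deviate together (mean correlation of their deviations -0.0049 in organs and -0.0045 in genotypes), so the letters were not used as pairs. Alternatives were quantile and median scaling, other offsets and filters, no trend, other sets of arrays, the replicate letter as a block, the 3'/5' ratio of control transcripts as a covariate, the other 6 mutants in place of Col-0, and leaving out each array.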

Additional observations from a re-analysis of the deposited data

How the results depend on the processing

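Of 67 called single differences of the 4 genes, 62 kept their direction and their side of the threshold in every alternative that was run. The tests over all organs or genotypes stayed past the threshold. Of 7 mutants, BGLU45 was called in 6 (4 to 6 over the alternatives), BGLU28 in 3 (2 to 4) and BGLU15 in 1 (2 against the mean of the other 6 mutants). Against that mean BGLU45 had 4 calls, 3 lower and 1 higher. The higher one was clv3-7, which was not called against Col-0, so these are not 4 of the same 6 calls. Of 21 organ pairs BGLU47 was called in 19 (18 to 20). Against the mean of the other 6 mutants, BGLU45 was at 1.05 in clv3-7, 0.23 in ap3-6 and 0.16 in ufo-1 and BGLU15 at 0.093 in ap1-15, each with the sign turned; these values are centred on 0 by construction and do not estimate the difference from Col-0. Median scaling turned the sign of BGLU15 in ap1-15 (0.00086) and of BGLU45 between hypocotyl and inflorescence apex (-0.0045). With the 3'/5' ratio as a covariate it turned for BGLU15 in ap1-15 (0.20), in ufo-1 (-0.00053) and between inflorescence and vegetative apex (0.12), and for BGLU45 between the transition apex and the vegetative apex with young leaves (-0.030). Of these differences, BGLU45 in ap3-6 and ufo-1 had been called against Col-0, and the others had not been called; the cause was not tested.

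Leaving out 1 array at a time gave BGLU15 differences of -0.025 to 0.16 in ag-12 and -0.12 to 0.0066 in ap1-15, and BGLU45 differences of -0.28 to 0.0083 in clv3-7. It gave -0.041 to 0.094 for BGLU45 between hypocotyl and inflorescence apex, -0.019 to 0.20 between the transition apex and the vegetative apex with young leaves, and -0.0017 to 0.16 for BGLU47 between internode and transition apex. The call of BGLU47 as higher in the internode than in the inflorescence apex (0.28, adjusted p = 0.013 in limma) was lost without Col-0 inflorescence apex replicate B or internode replicate C (0.20, adjusted p = 0.088 and 0.091). BGLU28 in ap1-15, not called above, was called without the trend (adjusted p = 0.035) and without ap1-15, ap2-6 or ag-12 replicate B (adjusted p = 0.016 to 0.046).

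With the replicate block, the adjusted p was 2.2e-14 for BGLU15, 1.2e-20 for BGLU45 and 3.2e-21 for BGLU47 over the organs, and 2.2e-04 for BGLU15, 1.2e-06 for BGLU28 and 5.4e-08 for BGLU45 over the genotypes, and no count of calls changed. Over all probe sets, the 3'/5' covariate moved the number called in ap1-15 to 2664 from 4020 and in ufo-1 to 1771 from 2748. Median scaling moved the median of all probe sets by up to 0.25 between organs and 0.090 between genotypes, and the share of calls that were higher to 77.6% from 50.04% in ufo-1 and to 71.8% from 47.7% in ap3-6. Each gene has 1 probe set, so the alternative of another probe set was not run. Under the 60th percentile filter BGLU28 and BGLU45 were not tested among genotypes, and some fits of 2 groups alone left out a member. Signals near the offset limit what can be said of BGLU28 in organs and of BGLU47 in inflorescence apices. Dim signals also limit the sizes for BGLU45 in the mutants, with arrays down to 8.41 in ag-12.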

Other observations

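Other beta-glucosidase genes differed between mutant and Col-0 inflorescence apices as well. BGLU42 was lower in ap3-6 (log2 difference -1.13 ± 0.09, adjusted p = 2.4e-10 in limma) and less so in ap2-6 (-0.34). BGLU44 was higher in ag-12 (0.64) and lfy-12 (0.45) and lower in ap1-15 (-0.43), and BGLU25 was higher in ap1-15 (0.73) and lower in lfy-12 (-0.40). These genes were picked after their values were seen. In the internode, APS4, an ATP sulfurylase, was above the inflorescence apex by 4.94 on the log2 scale, while the other sulfur assimilation genes APS3 and SIR were above it by 0.39 and 0.28.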
